A study of Homo sapiens with 8 samples.

Results

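The forkhead genes encode transcription factors that share a winged-helix DNA-binding domain, and their RNA was followed here through inhibition of HER2 and of BET bromodomains in breast cancer cell lines. Members were taken by name, as every listed gene whose symbol is FOX, a letter from A to S and a digit, with a normalised value of 10 or more in at least 1 library. FOXO3B, a copy of FOXO3 that may take up reads of the same sequence, was left out. Its value was 0.40 to 0.59 of that of FOXO3, and the sharing of reads was not tested. Of 48 forkhead genes listed, 26 were kept, among 14429 genes kept of 20531, and 22 stayed under the minimum, of which 8 were at 0 in every library. FOXA1, FOXM1, FOXN3 and FOXO3 were used for comparison, and the other 22 kept members are described.

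Poly(A) RNA was sequenced from SKBR-3 and BT474m1, both HER2-positive breast carcinoma lines. SKBR-3 and BT474m1 were each exposed for 48 h to DMSO, to 300 nM lapatinib, to 300 nM JQ1, or to both drugs at these doses. Lapatinib inhibits the kinases of HER2 and EGFR, JQ1 displaces BET bromodomain proteins from acetylated chromatin, and DMSO is the solvent. Cells of all groups were labelled as kept in RPMI with serum. Each of the 8 groups held 1 library, so no difference below has a replicate check and none was tested. Each line stands for 1 tumour, and a change of RNA per cell cannot be told apart from a change in which cells survived the drug.

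Forkhead proteins fall into lettered subfamilies with separate roles. The FOXO proteins are phosphorylated by AKT below HER2 and PI3-kinase, which keeps them out of the nucleus, and they activate genes of cell cycle arrest, apoptosis and receptor feedback. FOXA1 opens chromatin in luminal breast cells, FOXM1 drives mitotic genes, and the FOXP and FOXK proteins act largely as repressors.

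The promoters of FOXN1 and FOXO4 are shown because both genes were raised at least 2-fold by lapatinib in both lines, and 1 of FOXP1 because it holds a forkhead motif. The motif forms GTAAACA and GTCAACA were searched on both strands in RefSeq promoter windows (GRCh38.p14, 250 bases before to 50 bases after a gene start). Windows were found for 23 of the 26 kept members, 34 windows in all. Either form was in 2 of the 34 windows, 5.88%, against 5.62% of 35116 windows of all genes. FOXO4 and FOXP1 held the matches, both of the form GTAAACA. Capitals mark the match in the FOXP1 window, which lies on the opposite strand and starts 193 bases before that start; the 250 bases before the start are printed, 5′ to 3′ on the gene's strand.
FOXN1 promoter, chr17:28506098-28506347, plus strand: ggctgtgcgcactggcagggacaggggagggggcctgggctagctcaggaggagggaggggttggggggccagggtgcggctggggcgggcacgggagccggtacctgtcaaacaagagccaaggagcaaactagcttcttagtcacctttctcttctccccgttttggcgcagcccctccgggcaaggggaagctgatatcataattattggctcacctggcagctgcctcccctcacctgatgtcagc
FOXO4 promoter, chrX:71095601-71095850, plus strand: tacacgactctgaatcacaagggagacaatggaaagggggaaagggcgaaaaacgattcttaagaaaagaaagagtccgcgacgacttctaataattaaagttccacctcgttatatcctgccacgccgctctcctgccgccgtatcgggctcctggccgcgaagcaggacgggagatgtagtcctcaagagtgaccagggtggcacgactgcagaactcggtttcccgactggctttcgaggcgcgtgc
FOXP1 promoter, chr3:71245078-71245327, minus strand: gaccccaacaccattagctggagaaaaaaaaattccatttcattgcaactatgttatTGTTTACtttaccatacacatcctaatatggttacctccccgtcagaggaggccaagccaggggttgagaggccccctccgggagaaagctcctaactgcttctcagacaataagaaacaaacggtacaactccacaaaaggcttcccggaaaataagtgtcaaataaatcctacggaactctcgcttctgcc
The FOXO4 match begins 23 bases past the start, on the gene's strand, at chrX:71095864-71095890, plus strand, in the stretch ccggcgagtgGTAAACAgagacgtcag. The FOXN1 window held neither form. These motifs were settled on after 12 short motifs had been looked at, so the matches are a description of the sequence only.

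Values are estimated read counts per gene, which the authors had scaled to give each library an upper quartile of 1000 over genes above 0. Reads on genes numbered between 21420113 and 34112379 per library, and 3 reads, taken as the floor, were worth between 1.41 and 2.30 units. A log2 fold change is the difference of log2(value + 1), which understates changes of low genes. The range in parentheses after it is a 95% exact Clopper-Pearson interval that covers counting error only. Reads copied by PCR, with no molecular identifier, need not be separate molecules. A gene was called raised or lowered at a change of 2-fold or more, a rule of size and not a test. Of 10 luminal and HER2 markers, 9 reached 10 units in every library, and the exception was CDH1, at 2.58 to 15.1 units in SKBR-3. ESR1 was at 189.9 to 1827 units in BT474m1 and at 1.93 to 16.8 units in SKBR-3. Of 10 markers of other cell types, 6 stayed under 10 units in every library. Their summed level ran from 44 to 1409 units and was mostly COL1A1 in BT474m1.

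**Figure D1:**
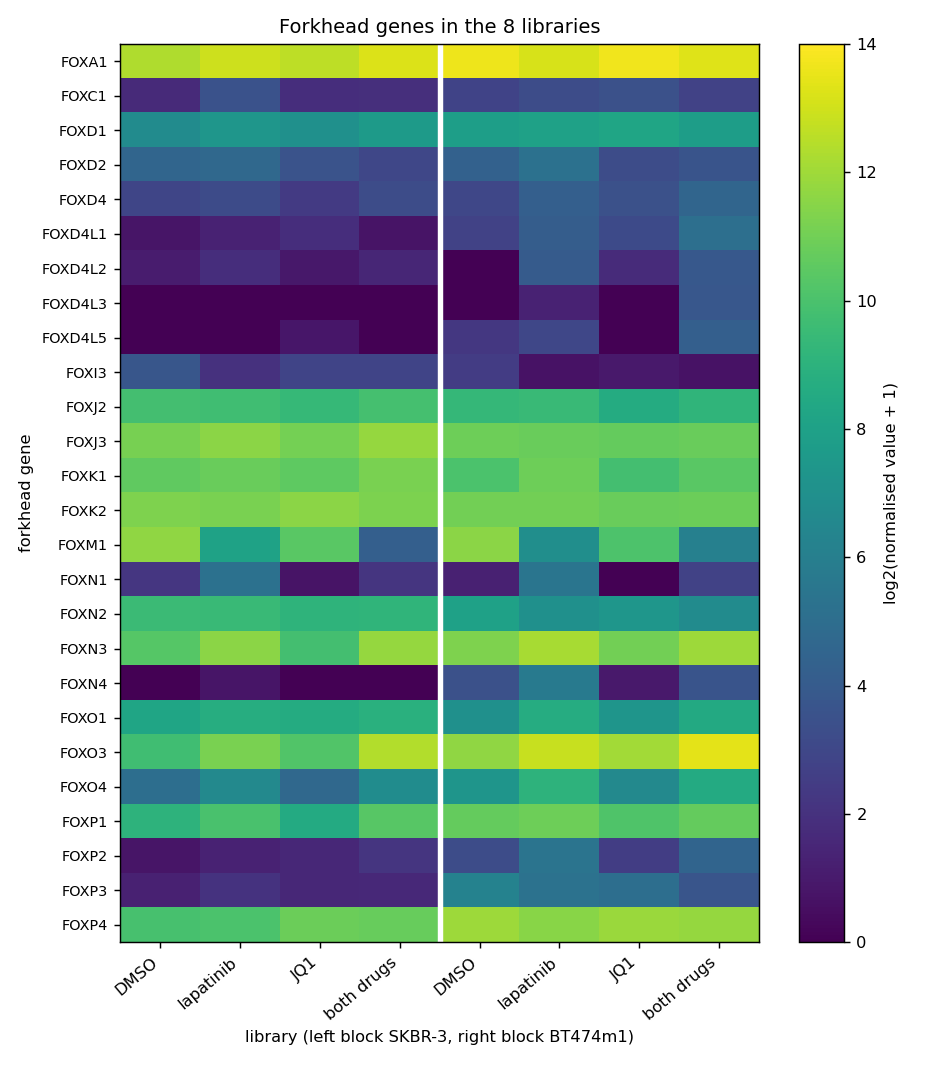
Level of the 26 kept forkhead genes in each of the 8 libraries, as log2(normalised value + 1) on the colour scale, with SKBR-3 in the left block and BT474m1 in the right. FOXA1 is the brightest line in 7 libraries and FOXO3 in the BT474m1 library of both drugs. FOXO3 and FOXO4 are brighter in both lapatinib libraries of each line, and FOXN4, FOXP2 and FOXP3 are near the bottom of the scale in SKBR-3. Values here are not per length, and FOXO3B is left out. Per kilobase, FOXA1 was above FOXO3 in the BT474m1 library of both drugs, at 2895 against 1486.5 units.

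With DMSO, the level of several members differed between the lines. Of the 26 members, 13 were at least 2-fold higher in BT474m1, where 26.8% of all genes were, and 4 were at least 2-fold lower, where 15.6% were. A length was matched for 25 of the 26 members, and levels between genes are compared per kilobase of transcript. FOXA1 and FOXM1 led the order in both lines. FOXK2, with 482 units per kilobase in SKBR-3 and 398 in BT474m1, and FOXJ3, with 424 and 363, were among the 6 highest in each line by the length of the main transcript. FOXP4, a repressor of lung and gut epithelium, stood at rank 5 in SKBR-3 (165 units per kilobase) and at rank 3 in BT474m1 (650.3 units per kilobase). FOXP3 had the largest log2 difference between the lines of the 26 members, 4.89 (3.53 to 5.97), at 0.639 units per kilobase in SKBR-3 and 31.6 in BT474m1. That difference rests on 152 estimated reads in BT474m1 against 2 in SKBR-3, in a gene whose exons overlap CCDC22 on the opposite strand. With the length of all exons joined in its place, FOXK2 was at rank 4 in SKBR-3 and 7 in BT474m1, FOXJ3 at rank 3 and 5, and FOXP4 at rank 7 and 3.

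**Figure D2:**
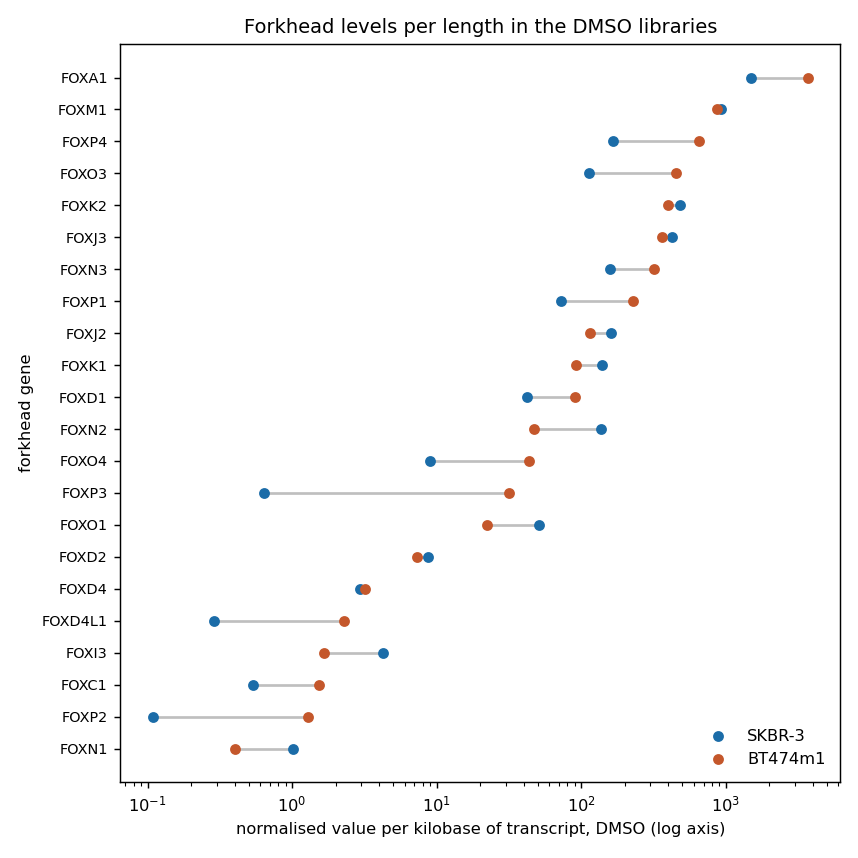
Level in DMSO per kilobase of transcript, on a log axis, for the 22 kept forkhead genes with a length and a value above 0 in both lines; 1 point is 1 library. FOXP3, at 0.639 and 31.6 units per kilobase and with 2 estimated reads in SKBR-3, has the longest line between the points. FOXK2 and FOXJ3 have short ones.

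Lapatinib raised more forkhead genes than it lowered in both lines, and FOXO3 and FOXO4 were among those raised in each. In SKBR-3, 5 of the 26 members were raised, where 11.1% of all genes were, and 2 were lowered, where 9.44% were. The median log2 fold change was 0.55 over the members and 0.05 over all genes. In BT474m1, 10 members were raised, where 14% of all genes were, and 2 were lowered, where 8.06% were, with medians of 0.77 and 0.07. Near-identical FOXD4 copies made up 4 of these 10, of which FOXD4L3 was within the floor in both libraries, and counted as 1 gene they left 7 of 22 raised. With a minimum of 100 units, over 14 members, 3 were raised and 1 lowered in each line, and with a mean of 10 or more, over 19 members, 4 and 6 were raised and 1 lowered in each. FOXN1, FOXO3 and FOXO4 were raised in both lines, where 4.39% of all genes were, and FOXI3 and FOXM1 were lowered in both, where 4.15% were. A member that entered only through a library where it is high had to differ between libraries, so these counts are a description. FOXN1, FOXN4, FOXP2 and the kept FOXD4 copies reached 10 units only in libraries with lapatinib. The members just inside the minimum were FOXC1, with a highest value of 10.7 units, FOXI3 with 12.2 and FOXD4L3 with 12.8, and those just outside it were FOXI1 with 8.02, FOXH1 with 6.69 and FOXD4L6 with 5.38.

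JQ1 alone raised 1 member in each line, and it lowered 2 members of SKBR-3 and 7 of BT474m1. Over all genes, 3.75% and 4.81% were raised and 11.8% were lowered in each line. The raised members were FOXD4 copies, FOXD4L1 in SKBR-3 with 4 reads against 1 and FOXD4L2 in BT474m1 with 0 reads in DMSO. Those lowered in BT474m1 were FOXD2, FOXD4L5, FOXI3, FOXM1, FOXN1, FOXN4 and FOXP3, of which FOXM1 alone passed with a pseudocount of 10. The medians over members were -0.01 and -0.25, against -0.08 and -0.06 over all genes, and the SKBR-3 one turned to 0.0063 with median-of-ratios scaling. With both drugs, 5 members were raised and 2 lowered against DMSO in SKBR-3, where 10.8% and 20.8% of all genes were. In BT474m1, 10 were raised and 4 lowered, where 14.2% and 15.3% were, and FOXD4 copies made up 5 of the 10. Counted as 1 gene, they left 6 of 22 raised. The medians with both drugs were 0.34 and 0.11 over members, and -0.08 and 0.00 over all genes. With a minimum of 100 units the BT474m1 median turned to -0.076, and 3 members were raised there and 2 lowered. Against lapatinib alone, both drugs raised 1 member, where 3.22% of all genes were raised, and lowered 4, where 16.2% were, in SKBR-3. The same comparison in BT474m1 raised 3 members, all FOXD4 copies, where 5.2% of all genes were raised, and lowered 4, where 12.5% were. The medians against lapatinib were 0.12 and -0.23 over members, and -0.11 and -0.02 over all genes. Without a filter those over members went to 0 and -0.02, and that of JQ1 in BT474m1 to 0. Under median-of-ratios scaling the SKBR-3 median against lapatinib was 0.28.

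JQ1 lowered FOXM1 and FOXN1 of the 26 members in both lines, where 5.31% of all genes were, and raised 0, where 1.16% were. The FOXN1 call was lost in both lines with a pseudocount of 10, its intervals included no change, and in BT474m1 it was within the floor in both libraries. Both drugs raised FOXO3, FOXO4 and FOXP2 in both lines, where 4.46% of all genes were, and lowered FOXM1, where 8.93% were. The FOXP2 call was lost in both lines with a pseudocount of 10, and its SKBR-3 interval of -0.60 to 2.33 included no change. Against lapatinib, both drugs raised 0 members in both lines, where 1.14% of all genes were, and lowered FOXD2 and FOXN1, where 6.31% were. Changes of 2-fold or more in opposite directions in the lines were found for 0 members, where 1.03%, 0.527%, 1.8% and 0.638% of all genes had them with lapatinib, JQ1, both drugs, and both drugs against lapatinib.

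FOXO4, a nuclear effector held in the cytoplasm by AKT signalling, was raised by lapatinib in both lines. In SKBR-3 its value was 32.9 in DMSO, 96.5 on lapatinib, 25.1 on JQ1 and 110.1 on the combination. In BT474m1 the values were 159, 532, 93.7 and 377. The lapatinib and combination libraries were the highest in each line, and the JQ1 libraries the lowest. The log2 fold change with lapatinib was 1.52 (1.04 to 2.03) in SKBR-3 and 1.74 (1.56 to 1.92) in BT474m1. With JQ1 alone it was -0.38 (-1.01 to 0.25) and -0.76 (-1.02 to -0.50). For both drugs against lapatinib alone it was 0.19 (-0.15 to 0.53) in SKBR-3 and -0.50 (-0.65 to -0.35) in BT474m1.

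FOXO1, which carries insulin and PI3-kinase signals to gluconeogenic and growth arrest genes, was raised 2-fold or more by lapatinib in BT474m1. In SKBR-3 its value was 295 in DMSO, 426 on lapatinib, 395 on JQ1 and 479 on the combination. In BT474m1 the values were 128, 401, 155 and 361. DMSO was the lowest library in both lines. On the log2 scale, the fold change with lapatinib was 0.53 (0.34 to 0.72) in SKBR-3 and 1.64 (1.44 to 1.85) in BT474m1, and with both drugs it was 0.70 (0.52 to 0.88) and 1.49 (1.28 to 1.70). FOXO1 was 2-fold or more lower in BT474m1 than in SKBR-3 with DMSO, and FOXO4 was higher. With lapatinib the FOXO1 values of the lines lay close, at 426 and 401.

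**Figure D3:**
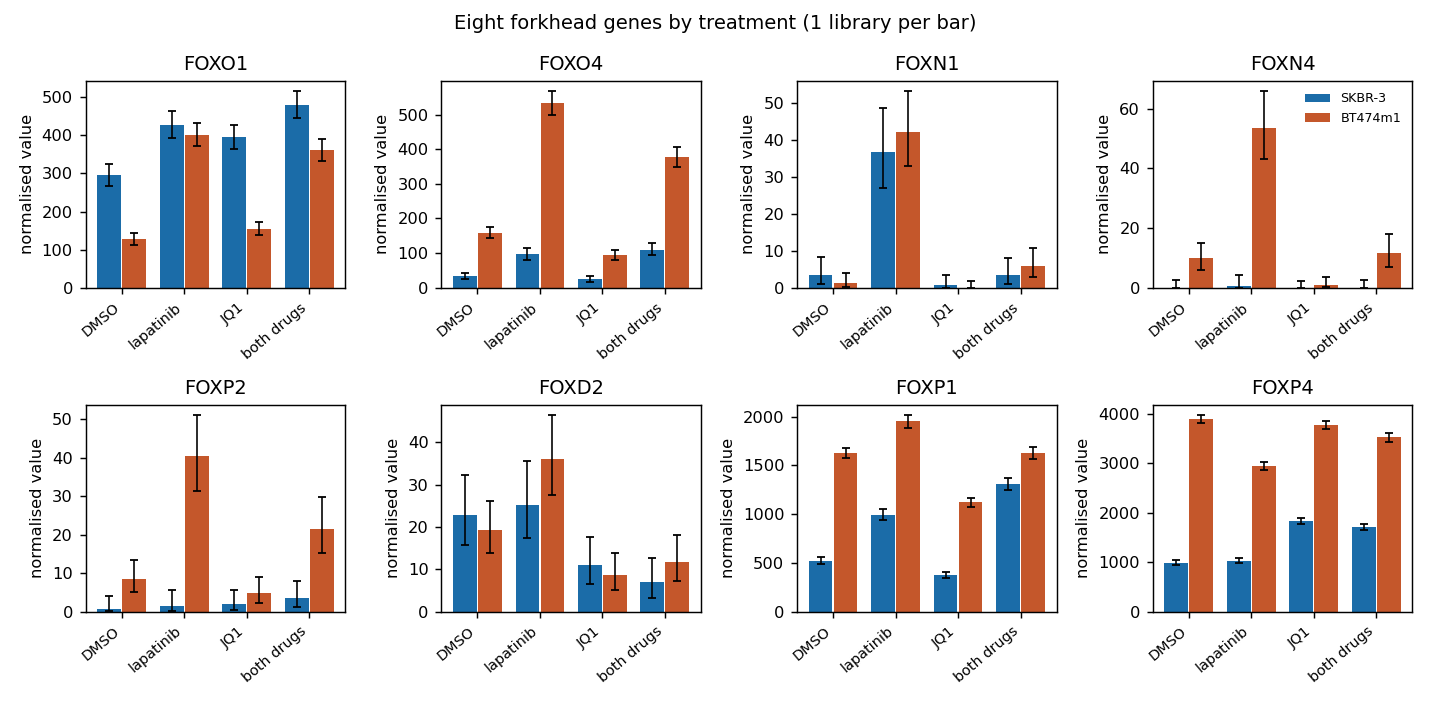
Normalised value of 8 forkhead genes, chosen after their values were seen, by treatment; each bar is 1 library of SKBR-3 (blue) or BT474m1 (orange), and error bars are 95% exact Poisson intervals that cover counting error only. FOXN1, FOXN4 and FOXP2 peak with lapatinib in BT474m1, at 42.2, 53.6 and 40.4 units, and FOXO1 and FOXO4 stay high with both drugs.

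FOXN1, known as the regulator of thymic epithelium and of hair and skin differentiation, was low in every library but those of lapatinib alone. It reached the minimum of 10 units only there, so a higher value with lapatinib came with its entry and is a description. Its value in SKBR-3 was 3.58 in DMSO, 36.8 on lapatinib, 0.644 on JQ1 and 3.44 on the combination. The BT474m1 values were 1.41, 42.2, 0 and 5.83. These stand for 5, 48, 1 and 5 reads in SKBR-3 and 3, 70, 0 and 10 reads in BT474m1. The lapatinib library was the highest in each line, and the other 3 libraries were within 10 reads. The log2 fold change with lapatinib was 3.04 (1.91 to 4.20) and 4.16 (3.0 to 5.11). For both drugs against lapatinib alone it was -3.09 (-4.23 to -1.96) in SKBR-3 and -2.66 (-3.58 to -1.79) in BT474m1. Both comparisons use the same lapatinib library, so a high value in that library would appear in each. The JQ1 libraries held 1 read and 0 reads, so the lowering of FOXN1 against DMSO rests on counts at or near the floor.

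FOXN4, a neural and ciliated progenitor factor named after its values were seen, had a like order of libraries in BT474m1. There its value was 9.90 in DMSO, 53.6 on lapatinib, 0.966 on JQ1 and 11.7 on the combination. SKBR-3 held at most 1 read of it in any library, so that no fold is given. The BT474m1 log2 fold change was 2.32 (1.67 to 3.01) with lapatinib and -2.11 (-2.82 to -1.44) for both drugs against lapatinib. FOXN2, a widely expressed relative, went the other way in BT474m1. It was at 743 in DMSO, 728 on lapatinib, 545 on JQ1 and 579.9 on the combination in SKBR-3. It was at 254, 127, 163 and 108 in BT474m1, with DMSO the highest. Its log2 fold change with lapatinib was -0.03 (-0.16 to 0.10) in SKBR-3 and -0.99 (-1.23 to -0.76) in BT474m1, just under 2-fold, and the combination in BT474m1 gave -1.23 (-1.48 to -0.99).

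The FOXP genes did not share 1 order of libraries in BT474m1. FOXP1, a repressor in B cells and epithelia, was at 523 in DMSO, 994 on lapatinib, 369.8 on JQ1 and 1306 on the combination in SKBR-3. Its BT474m1 values were 1627, 1953, 1122 and 1624. JQ1 alone gave the lowest value in each line. On the log2 scale, the fold change with both drugs was 1.32 (1.19 to 1.44) in SKBR-3, where it was called raised, and 0.00 (-0.07 to 0.07) in BT474m1. JQ1 alone gave -0.50 (-0.66 to -0.34) and -0.54 (-0.61 to -0.46).

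FOXP4 was at 989 in DMSO, 1031 on lapatinib, 1828 on JQ1 and 1709 on the combination in SKBR-3. The BT474m1 values were 3898, 2934, 3774 and 3524. Both libraries with JQ1 were the higher in SKBR-3, whereas lapatinib alone gave the lowest value in BT474m1. The log2 fold change with JQ1 was 0.89 (0.79 to 0.98) in SKBR-3 and -0.05 (-0.09 to -0.00) in BT474m1.

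FOXP2, known for its role in speech circuits, was at 8.49 in DMSO, 40.4 on lapatinib, 4.83 on JQ1 and 21.6 on the combination in BT474m1. In SKBR-3 it was at 0.716, 1.53, 1.93 and 3.44 units, which is at most 5 reads. The BT474m1 log2 fold change was 2.12 (1.41 to 2.87) with lapatinib and 1.25 (0.46 to 2.05) with both drugs. The SKBR-3 call with both drugs, 1.37 (-0.60 to 2.33), rests on 5 reads against 1.

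FOXP3, the master factor of regulatory T cells and named after its values were seen, was near the floor in SKBR-3, at 1.45 to 3.09 units. Its BT474m1 values were 71.5 in DMSO, 38.3 on lapatinib, 32.1 on JQ1 and 11.9 on the combination. DMSO was the highest and both drugs the lowest. On the log2 scale, the fold change in BT474m1 was -0.88 (-1.31 to -0.46) with lapatinib, -1.13 (-1.57 to -0.73) with JQ1 and -2.49 (-3.20 to -1.88) with both drugs. CCDC22, whose exons overlap FOXP3 on the opposite strand, was at 382, 283, 202 and 112 in the same libraries, in the same order. In SKBR-3 CCDC22 was at 446, 433, 297 and 289.6, where FOXP3 held at most 4.03 estimated reads. The reads of FOXP3 are fractional estimates, the labels name both a stranded kit and another kit, and whether strand was used in counting is not stated. The summed level of the 10 markers of other cell types was 1409, 1244, 411 and 346 units in these BT474m1 libraries. Most of that sum was the single gene COL1A1, at 1253, 1211, 394 and 337 units. The part of CCDC22 and of these markers in the FOXP3 values was not tested. The leukocyte marker PTPRC and the T cell marker CD3E were at most 3.38 and 2.86 units in any library.

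FOXK1 and FOXK2, which recruit corepressors and the BAP1 deubiquitinase and act on autophagy and glycolysis genes, were both abundant. FOXK1 was at 1559 in DMSO, 1802 on lapatinib, 1481 on JQ1 and 2295 on the combination in SKBR-3. The BT474m1 values were 1029.7, 1927, 889 and 1373. Its lapatinib log2 fold change was 0.21 (0.12 to 0.29) and 0.90 (0.82 to 0.98), both under 2-fold. FOXK2 was at 2528, 2301, 3089 and 2441 in SKBR-3 and at 2087, 2089.8, 1817 and 1828 in BT474m1. The FOXK2 libraries lay within -0.20 and 0.29 of DMSO on the log2 scale. WDR45B, listed under its older symbol WDR45L, overlaps FOXK2 exons on the opposite strand, at 2059 to 2982 units.

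FOXJ2 and FOXJ3, which act in spermatogenesis and in muscle, also stayed under 2-fold throughout. FOXJ2 was at 885 in DMSO, 830.0 on lapatinib, 675 on JQ1 and 922 on the combination in SKBR-3. Its BT474m1 values were 631, 727, 387 and 571. JQ1 alone gave the lowest FOXJ2 value in each line, with a log2 fold change of -0.39 (-0.51 to -0.27) and -0.70 (-0.83 to -0.58). FOXJ3 was at 2216, 3073, 2174 and 3508 in SKBR-3 and at 1898, 1791, 1668 and 1764 in BT474m1. Both lapatinib libraries were the higher for FOXJ3 in SKBR-3, at 0.47 (0.40 to 0.54) with lapatinib alone on the log2 scale, and in BT474m1 the same value was -0.08 (-0.15 to -0.01).

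**Figure D4:**
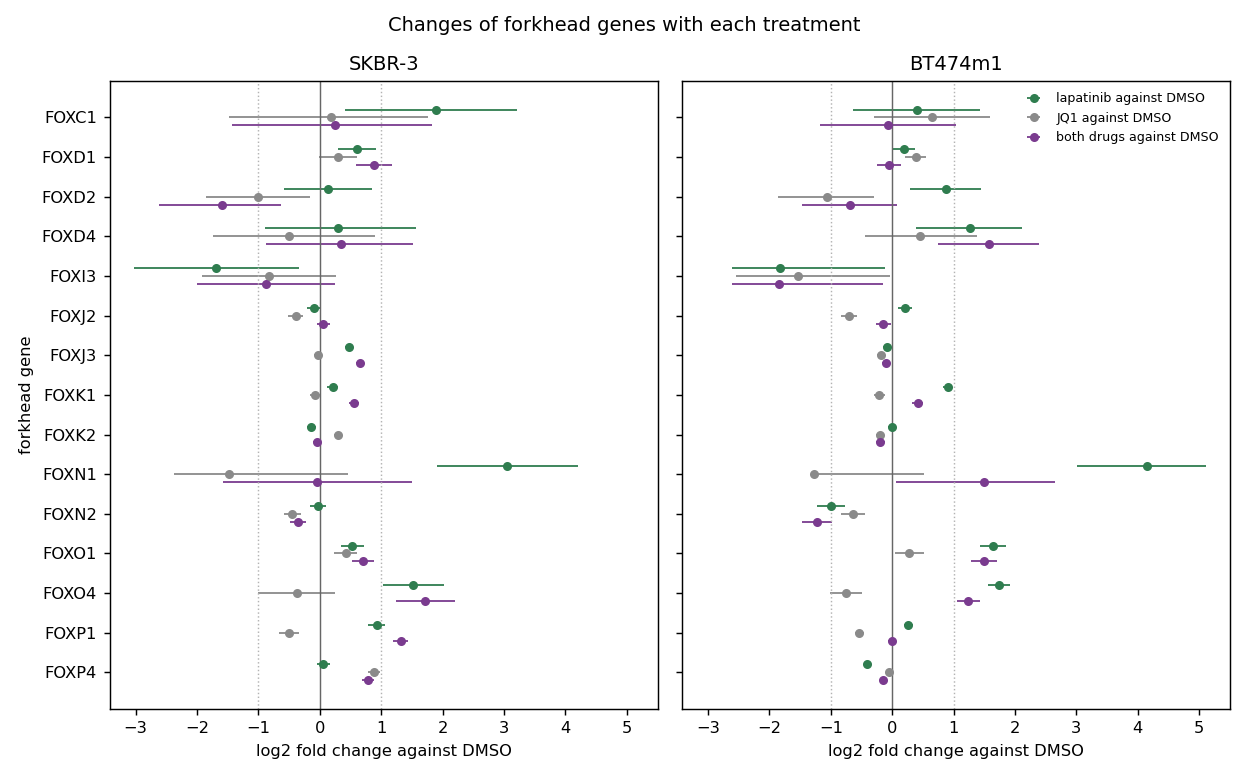
Log2 fold change against DMSO for 15 forkhead genes, chosen after their values were seen, in SKBR-3 (left) and BT474m1 (right); points are lapatinib (green), JQ1 (grey) and both drugs (purple), bars are 95% counting intervals and dotted lines mark 2-fold. FOXO4 with lapatinib lies at 1.52 and 1.74, FOXN1 at 3.04 and 4.16, and the FOXJ and FOXK genes lie inside the dotted lines.

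Of the FOXD genes, FOXD1, a factor of kidney stroma, was under 2-fold in every treatment. It was at 105 in DMSO, 161 on lapatinib, 129.5 on JQ1 and 194 on the combination in SKBR-3, and at 226, 257, 295 and 219 in BT474m1. FOXD2 was at 22.9 in DMSO, 25.3 on lapatinib, 11 on JQ1 and 6.88 on the combination in SKBR-3. The BT474m1 values were 19.3, 36.1, 8.70 and 11.7. The libraries with JQ1 were the lower 2 in each line. For both drugs against lapatinib, FOXD2 was lowered in both lines, with a log2 fold change of -1.74 (-2.75 to -0.77) and -1.55 (-2.29 to -0.84). FOXD2 and FOXN1 were the 2 members lowered in both lines in that comparison, where 6.31% of all genes were.

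The FOXD4 copies are near-identical, so estimated reads may be divided between them, and they are given as a sum over 6 listed genes. The sum was 11.5 in DMSO, 17.6 on lapatinib, 10.3 on JQ1 and 11 on the combination in SKBR-3. Its BT474m1 values were 16.5, 57.8, 23.2 and 100.9. Both lapatinib libraries of BT474m1 were higher than any other. The log2 fold change of the sum in BT474m1 was 1.75 (1.2 to 2.32) with lapatinib and 2.54 (2.03 to 3.08) with both drugs.

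FOXI3, a factor of ectodermal appendages, was lowered by lapatinib in both lines on few reads, and the call was lost in both with a pseudocount of 10. It was at 12.2 in DMSO, 3.06 on lapatinib, 6.44 on JQ1 and 6.19 on the combination in SKBR-3. The BT474m1 values were 4.71, 0.602, 0.966 and 0.583, which is 10, 1, 2 and 1 reads. DMSO was the highest in each line, and the log2 fold change with lapatinib was -1.70 (-3.02 to -0.33) and -1.83 (-2.60 to -0.12). FOXC1, known from basal-like breast cancer, stayed between 2.15 and 10.7 units over the 8 libraries. Its SKBR-3 call with lapatinib, 1.90 (0.41 to 3.21), rests on 14 reads against 3 and was lost with a pseudocount of 10.

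Genes tied to these factors were counted from lists chosen with earlier results of these data known. Of 24 genes known as FOXO targets, lapatinib raised 17 in SKBR-3 and 11 in BT474m1, and it lowered 0 in either line, where 11.1% and 14% of all genes were raised and 9.44% and 8.06% lowered. Their median log2 fold change was 1.51 and 0.78, against 0.05 and 0.07 over all genes. PIK3IP1, an inhibitor of PI3-kinase, had a log2 fold change of 2.57 (2.43 to 2.71) and 2.60 (2.49 to 2.70), and CCNG2, a cyclin of arrested cells, of 1.83 (1.73 to 1.94) and 0.65 (0.61 to 0.68). With both drugs 18 and 13 targets were raised, where 10.8% and 14.2% of all genes were, and 0 and 1 lowered, where 20.8% and 15.3% were. JQ1 alone raised 4 and 3 of them, where 3.75% and 4.81% of all genes were, and lowered 1 and 3, where 11.8% were in each line.

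Of 25 kinases, phosphatases and partners that act on FOXO proteins, lapatinib raised 0 in SKBR-3 and lowered 2, XPO1 and SKP2, and it lowered 0 in BT474m1, where 11.1% of all genes were raised in SKBR-3 and 9.44% and 8.06% lowered in the lines. XPO1, the nuclear export receptor, had a log2 fold change of -1.28 (-1.33 to -1.23), and SKP2, a ubiquitin ligase subunit, of -1.10 (-1.28 to -0.93). SGK3, an AKT-related kinase, was raised by lapatinib in BT474m1, with a log2 fold change of 1.86 (1.78 to 1.95), and was at -0.07 (-0.18 to 0.04) with both drugs. Of 14 FOXM1 targets, mostly mitotic genes with the ubiquitin ligase components SKP2 and CKS1B, lapatinib lowered 14 and 13, where 9.44% and 8.06% of all genes were, and FOXM1 itself was lowered in both lines. Of 15 corepressor and deubiquitinase partners of FOXP and FOXK proteins, lapatinib raised 0 and 1, where 11.1% and 14% of all genes were, and lowered 0 in each line, and the 1 was OGT.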

How the data were processed

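Tables of 20531 genes for 8 libraries, 1 per group, were used as deposited. The authors estimated read counts per gene with RSEM and deposited a signal scaled to an upper quartile of 1000 over genes above 0. The submitters' processing notes also name hg19, Picard 1.88, SAMtools 1.2, R 3.2.2 and DESeq2 1.12.3. The methods text names another assembly, aligner and counter and a shorter treatment, and the labels name 2 library kits; the labels were followed for the treatment.

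The value of 1 read was recovered as the common step of each library, 0.471 to 0.766 units, and 83.8% to 85.2% of values above 0 were whole reads within 0.02. The rest were fractional, so no count test was run. The filter kept genes that reached 10 units in any library, a pseudocount of 1 was added and a change of 2-fold or more was called. Intervals were tried on simulated whole reads with Poisson error, the error they assume, for genes with a mean of 10 units or more. That trial does not cover fractional reads, PCR copies or members of few reads. Members that reached 100 units in any library, or changed 2-fold or more in the same direction in both lines, were given per library, and exceptions are named in the text. Members and lists were chosen with earlier results of these data known. FOXD4 copies were also summed. Exon overlaps and lengths came from GENCODE annotation of GRCh38, without coordinates. The 250 bases before the start were printed, and motifs were searched over 300 bases. The alternatives were 6 planned ones and 2 chosen after the data were seen. The tools were matplotlib 3.10.9, numpy 2.4.6, scipy 1.17.1, pandas 2.3.3 and Python 3.11.15. The result of 1 gene of a list is not reported here.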

Additional observations from a re-analysis of the deposited data

Results flagged for a closer look

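These results had opposite directions in SKBR-3 and BT474m1 with both counting intervals clear of no change, a criterion set after the data were seen. With 1 library per group the difference between the lines was not tested. The share of all genes that met this criterion is not given, so the list does not set these members apart. Intervals of abundant genes can clear no change at small sizes, and 0 members changed 2-fold or more in opposite directions. Values are log2 fold changes, SKBR-3 first. With lapatinib, FOXA1 was at 0.60 and -0.53 and FOXJ3 at 0.47 and -0.08. With JQ1, FOXK2 was at 0.29 and -0.20 and FOXP4 at 0.89 and -0.05. With both drugs, FOXA1 was at 0.91 and -0.35, FOXJ3 at 0.66 and -0.10, and FOXP4 at 0.79 and -0.15. For both drugs against lapatinib, FOXD1 was at 0.27 and -0.23, FOXJ2 at 0.15 and -0.35, FOXK1 at 0.35 and -0.49, FOXK2 at 0.085 and -0.19, FOXN3 at 0.21 and -0.23, and FOXP1 at 0.39 and -0.27. The scalings were compared for these results after the data were seen. Under median of ratios 11 of these 13 kept opposite directions with both intervals clear of no change, and FOXP4 with JQ1 (-0.0079 in BT474m1) and FOXD1 for both drugs against lapatinib did not. With equal totals 11 did, and FOXD1 and FOXK2 for both drugs against lapatinib did not.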

How the results depend on the processing

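Counts of raised and lowered members kept within 1.5 times of the reported ones under median-of-ratios scaling in all comparisons with either drug, and under equal totals in all but 1, where JQ1 raised 0 members in SKBR-3. With a pseudocount of 10, lapatinib lowered 1 member in each line, JQ1 raised 0 and lowered 1 in each, both drugs lowered 1 against DMSO in SKBR-3, and both drugs raised 0 against lapatinib in BT474m1. Without a filter, over 48 genes, JQ1 lowered 4 in SKBR-3, and in BT474m1 it raised 2 and lowered 11. Lapatinib then lowered 6 in BT474m1, both drugs lowered 5 and 8, and both drugs raised 2 against lapatinib in SKBR-3. With a minimum of 100, over 14 genes, lapatinib raised 3 and lowered 1 in each line, JQ1 raised 0 and lowered 1 in each, and the combination lowered 1 in SKBR-3, while in BT474m1 it raised 3 and lowered 2. Set against lapatinib, the combination lowered 1 in SKBR-3, and 0 were raised and 0 lowered for BT474m1. Where the counting interval also had to exclude no change, JQ1 lowered 1 and raised 0 in SKBR-3, and 0 were raised by it in BT474m1. That last setting drops genes of few reads, the filters change which members are counted, and a larger pseudocount shrinks changes of low genes. What moved each single count was not tested. Shares over all genes are given only for the filter at 10 units with a pseudocount of 1. Counts under any other setting are therefore not set against all genes.

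Of the settings chosen after the data were seen, a mean value of 10 or more left 19 members. Lapatinib then lowered 1 in each line and raised 6 in BT474m1, JQ1 raised 0 in each line and lowered 4 in BT474m1, and both drugs raised 6 against DMSO and 0 against lapatinib in BT474m1. With the FOXD4 copies as 1 gene, JQ1 raised 0 in each line, and both drugs raised 6 against DMSO and 0 against lapatinib in BT474m1. The median over members turned sign in 2 cases, to 0.0063 with JQ1 in SKBR-3 under median-of-ratios scaling and to -0.076 with both drugs in BT474m1 at a minimum of 100. That of both drugs against lapatinib in SKBR-3, 0.12 as reported, was 0.28 under median of ratios and 0 without a filter, and without a filter JQ1 in BT474m1 went from -0.25 to 0 and both drugs against lapatinib in BT474m1 from -0.23 to -0.02. Of the values of single genes, 56 moved beyond their counting interval under median of ratios and 178 did not, and under equal totals 37 moved and 197 did not. The median of all genes moved by over 0.1 in 2 cases, by -0.14 with JQ1 in SKBR-3 under equal totals and by 0.11 for both drugs against lapatinib in SKBR-3 under median of ratios. Single members could move further than that median. Under median of ratios, FOXA1 with both drugs in SKBR-3 went from 0.91 to 1.06, past 2-fold. FOXJ2 for both drugs against lapatinib in SKBR-3 went from 0.15 to 0.31. Depth limits FOXN1 outside lapatinib, FOXI3 and FOXC1, at 0 to 21 reads per library, and the SKBR-3 values of FOXN4, FOXP2 and FOXP3. No paired analysis was possible because each group held 1 library and the labels give no replicate numbers.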
